A study of Mus musculus with 3 samples.

Results

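The p53 pathway genes described here are 8 mouse genes: Trp53, which encodes the transcription factor p53, its inhibitors Mdm2 and Mdm4, and the p53 target genes Cdkn1a, Ccng1, Aen, Bax and Phlda3. Together they held 49 of the 34238 isoforms in 3 long-read libraries, and 7 of the 8 were among the 6961 genes with at least 1 isoform. An isoform here is one deposited transcript, complete or partial, given by the positions of its exons on GRCm38. It was assigned to a member when, on the same strand, it shared more splice sites with that gene of GENCODE M21 than with any other. The 3 unspliced isoforms, which have no splice sites, were assigned by the most shared exonic bases. The genes were chosen by name with results of these data known, and Aen and Ccng1 were chosen by the length of their terminal exons after 2 divisions, so those lengths are given as a description.

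The libraries came from CD4+ T cells of wild-type male C57BL/6N mice aged 6 to 10 weeks, isolated from spleens and lymph nodes. They were 1 library each of naive cells, of cells activated for 48 h with anti-CD3 and anti-CD28 that had not divided, and of cells activated in the same way that had gone through 2 divisions, sorted by dilution of the dye CellTrace Violet. Activation in culture was thus common to both sorted groups and cannot be told apart from time in culture. With 1 library per condition no test was made, there is no error between replicates, and each difference below is one between libraries. An isoform is listed or not listed, with no read count, so a gene without an isoform may be expressed below the depth of its library, which is unknown.

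The naive library held 10527 isoforms, the undivided library 12602 and the 2-division library 11109. The names of the deposited data tag both activated libraries as Cell1 and the naive library as Cell2, so naive against activated cannot be told apart from that tag. Of 6 genes that mark CD4 T cells, the naive library listed 6 and each activated library 5, Cd4 and Lck among them. Of 5 genes that rise on T cell activation, each activated library listed 5 and the naive library 3 (Cd69, Cd44 and Myc, but not Il2ra and Tfrc). Of 10 B cell genes, the naive library listed 6 and each activated library 2. Of 7 myeloid genes, it listed 1 (Lyz2) and they listed 0. Of 5 genes of CD8 T and NK cells, 1, 2 and 1 were listed (naive, undivided, 2 divisions).

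p53 is held low in unstressed cells because Mdm2, a ubiquitin ligase, marks it for degradation, while Mdm4 binds p53 and blocks its activity. DNA damage and other stress release p53, which then switches on Cdkn1a to stop the cell cycle, and Bax and other genes that lead to cell death. Mdm2 and Ccng1 are themselves targets of p53 and act back on it. Dividing T cells replicate their DNA fast, a state in which this pathway is known to be engaged.

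The number of isoforms differed most between libraries in Ccng1, Mdm2 and Cdkn1a. Ccng1 had 3 isoforms in the naive library, 8 in the undivided library and 2 in the 2-division library. Mdm2 had 2, 5 and 2 in the same order, and Cdkn1a had 0, 3 and 1. Trp53 had 2, 2 and 1 isoforms. Aen had 3, 3 and 4, and Bax had 1, 2 and 2. Mdm4 had 1, 2 and 0, and Phlda3 had 0 in each library. The undivided library held the most isoforms for Ccng1, Mdm2, Cdkn1a and Mdm4. It tied with the naive library for Trp53 and with the 2-division library for Bax, and Aen had the most after 2 divisions. The undivided library was also the largest over all genes, with 12602 isoforms.

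**Figure D1:**
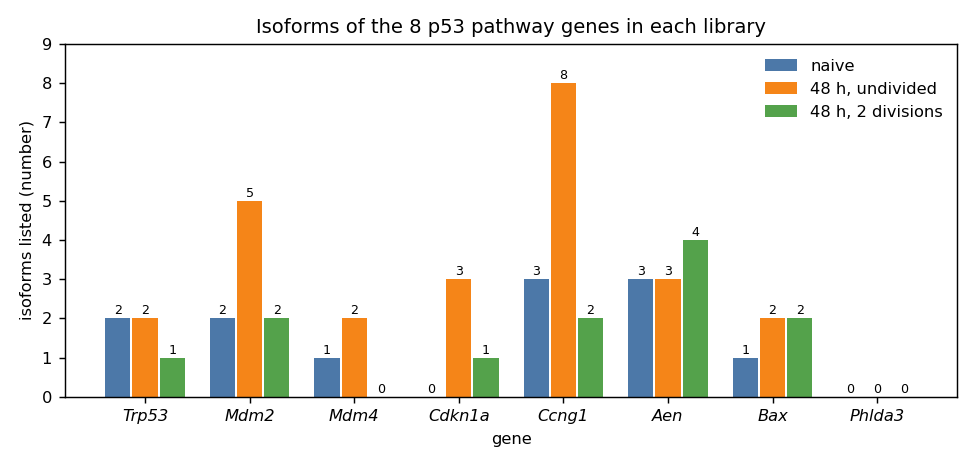
Bars give the number of isoforms listed (y axis) for each of the 8 genes (x axis) in naive cells, undivided cells and cells after 2 divisions, 1 library each. Ccng1 and Mdm2 had 8 and 5 isoforms in undivided cells, Cdkn1a had none in naive cells, and Phlda3 had none at all.

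Over all members the naive library held 12 isoforms, the undivided library 25 and the 2-division library 12. The undivided library thus held 2.08 times as many member isoforms as either of the others. Over all genes it held 1.197 times as many isoforms as the naive library and 1.13 times as many as the 2-division library. Ccng1 gave 3, 8 and 2 of the member isoforms (naive, undivided, 2 divisions). As Ccng1 was chosen by the terminal exons of these isoforms, nothing is read from the member ratio. Members with an isoform numbered 6, 7 and 6 of 8. Beside this, the naive library listed 21.1% of 21951 protein-coding genes, the undivided library 24.9% and the 2-division library 23.1%, and 69.2% were listed in no library. Among the genes seen, the median number of isoforms was 1, 2 and 1 in the same order. For the members it was 2, 3 and 2.

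Trp53 (ENSMUSG00000059552.13, chr11:69580359-69591873, + strand) had 5 isoforms, which ended within 1 nt of each other, at the annotated 3′ end. All began between 69580378 and 69580403 and none was cut off at the 5′ side. The chain of introns of the reference transcript Trp53-203 was found in each library, in isoforms of 1726, 1727 and 1727 nt (naive, undivided, 2 divisions). Each of these read 390 codons from the annotated start.

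The naive library alone had a second form of the end of the Trp53 reading frame. Its last intron ended 96 nt further upstream, at an acceptor that Trp53-202 and Trp53-206 also use, so that the terminal exon began at chr11:69591254 and was 619 nt long, against 522 or 523 nt from the acceptor at chr11:69591350. The 24 bases around both junctions are shown because the bases after the junction, in capitals, set which reading frame follows.
Trp53 upstream acceptor: ggctcactccagCCTCCAGCCTAG
Trp53 downstream acceptor: ggctcactccagCTACCTGAAGAC
The first 364 codons were the same in both forms. After them, the upstream acceptor gave 17 codons and a stop, for 381 in all, and the downstream acceptor gave 26 codons. The C terminus of p53, which these codons encode, is known as the part that regulates its binding to DNA, and mouse cells are known to make this alternatively spliced form. The 3′ UTR was 564 nt long with the upstream acceptor and 440 or 441 nt with the other.

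The undivided library had 1 Trp53 isoform of 10 exons and 2474 nt that kept a 731 nt intron (chr11:69587633-69588363). Its reading frame shared 122 codons with the full-length form, ran 20 codons into the intron and stopped, at 142 codons. The stop lay 1393 nt upstream of the last exon junction. A stop more than about 50 nt upstream of the last junction is the textbook mark of transcripts that nonsense-mediated decay can remove. Its introns were all annotated, but no annotated transcript combines them this way.

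Mdm2 (ENSMUSG00000020184.15, chr10:117688875-117710758, - strand) had 9 isoforms, which differed in an early exon, in the start and, once, in the 3′ end. The 12 exons of Mdm2-201, with a reading frame of 489 codons, were found in each library, in 1, 2 and 1 isoforms (naive, undivided, 2 divisions). A form without the 85 nt exon at chr10:117709700-117709784 was also found in each library, as 1, 2 and 1 isoforms. That exon holds the annotated start codon, so the 2 junctions are set side by side, with the bases after each junction in capitals.
Mdm2 junction into the 85 nt exon: gcgggcctccagGCCAATGTGCAA
Mdm2 junction across the skipped exon: gcgggcctccagGTTAGACCAAAA
The first annotated start codon that remained without the exon opened 440 codons in the same frame, 49 fewer than the full form and identical to its last 440. The part of Mdm2 that these 49 codons encode reaches into its p53-binding domain. No annotated transcript has the whole chain of the skipped form, though each of its introns is annotated.

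Of the 9 Mdm2 isoforms, 7 began between chr10:117710687 and chr10:117710733. The remaining 2, both in undivided cells, began at 117710281 and 117710272, inside the first intron and 406 and 415 nt downstream of the nearest of the others. They lay 11 and 20 nt from the start of the annotated transcript Mdm2-207. Mdm2 is known to have an outer promoter and an inner promoter in its first intron, the inner one driven by p53. One of the 2 isoforms from the inner start contained the 85 nt exon and the other lacked it. With 5 Mdm2 isoforms in undivided cells and 2 in each other library, a start that went unlisted elsewhere may lie below their depth.

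Terminal exons of Mdm2 began at one acceptor, and 8 of 9 isoforms ended between 117688895 and 117688897, giving 1889 to 1891 nt. In undivided cells 1 isoform ended 68 nt before the nearest annotated end, with 1823 nt, behind an AATAAA of its own.

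Mdm4 (ENSMUSG00000054387.13, chr1:132959484-133030561, - strand) was represented by 3 isoforms, of which 1 was spliced. Naive cells had an unspliced isoform of 3184 nt, and undivided cells had an unspliced isoform of 1695 nt. Both ended at the same base, chr1:132986221, within 1 nt of the end of the annotated transcript Mdm4-210, with an ATTAAA beginning 18 nt before it. They hold no annotated start codon, and which upstream exons they belonged to is not seen from them. In naive cells 1 isoform on the other strand overlapped the gene.

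The spliced Mdm4 isoform, in undivided cells, had the 11 exons of Mdm4-201 and ended at the stop codon. Its terminal exon was 568 nt long against 872 nt in Mdm4-201, with an ATTAAA beginning 18 nt before the end. In the sequence around that end, the lower case bases are the last 12 of the isoform and the capitals are the genome that follows.
Mdm4 end at the stop codon: tttttatagcatAGTTGAGTCAGT
The isoform held 1 of the 3 bases of the stop codon, TAG, at chr1:132991656-132991658. Its 490 codons therefore ran to the end with no stop in the genome-encoded part, and a poly(A) tail placed after the last base would read TAA there. The 20 bases of genome after this end held 7 A, below the 12 used here to call an end A-rich. After 2 divisions no isoform was listed for Mdm4. Of all protein-coding genes, 2.00% were likewise listed in naive and undivided cells and not after 2 divisions.

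**Figure D2:**
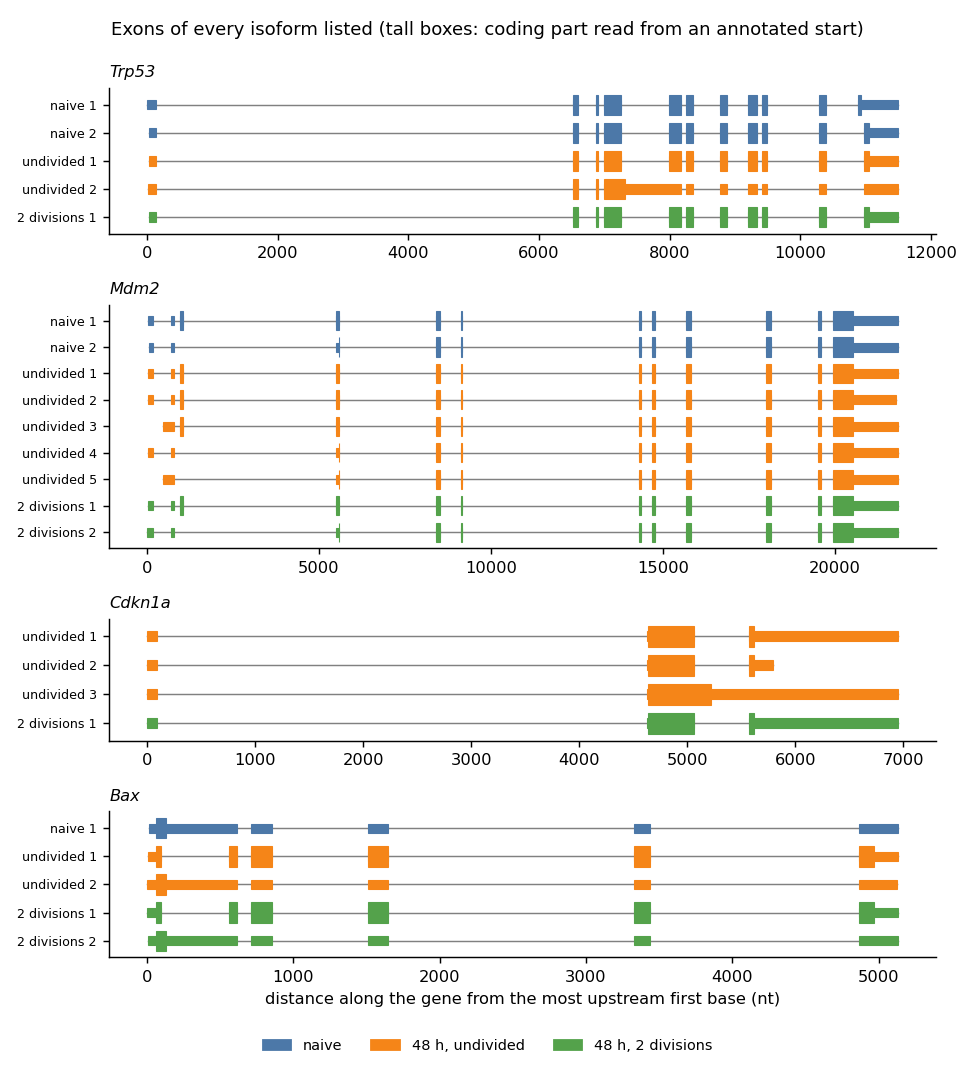
Exons (boxes) and introns (lines) of every isoform of Trp53, Mdm2, Cdkn1a and Bax, by distance in nt from the most upstream first base of the gene, coloured by library. Tall boxes mark the reading frame from the first annotated start codon held. The kept introns of Trp53 (undivided 2), Cdkn1a (undivided 3) and Bax (naive 1, undivided 2 and 2 divisions 2) show as long merged boxes, and Mdm2 undivided 3 and 5 start further right than the rest.

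Cdkn1a (ENSMUSG00000023067.14, chr17:29090976-29100727, + strand) encodes p21, the inhibitor of cyclin-dependent kinases through which p53 stops the cell cycle. It was absent from the naive list, had 3 isoforms in undivided cells and 1 after 2 divisions. Of all protein-coding genes, 4.61% were likewise seen in both activated libraries and not in naive cells. The form common to both activated libraries had the 3 exons of Cdkn1a-201, a terminal exon of 1378 nt and a frame of 159 codons.

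The undivided library had 2 further Cdkn1a forms. One kept the 506 nt second intron (chr17:29098838-29099343), had 2 exons and a frame of 195 codons, of which the first 143 were those of the full form. Its stop lay in the kept intron, which here is part of the last exon, so no junction followed it. The other was spliced fully but ended at chr17:29099562, which left 219 nt of the terminal exon and shortened its 3′ UTR from 1328 to 169 nt. No poly(A) signal lay in the 50 nt before that end, and the next 20 bases of genome were A-rich. Whether this end is a cleavage site was not tested. It lay 15 nt from the annotated end of Cdkn1a-203.

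All 4 Cdkn1a isoforms began between chr17:29093772 and chr17:29093775, 2796 nt or more inside the annotated gene, at the first exon of Cdkn1a-201. In the RefSeq promoter windows of GRCm38.p6, which run from 250 bases before to 50 after a start, the p53 decamer (the 10-base consensus unit of a p53 response element, the same on both strands, in which no mismatch was allowed) was found at 2 places before the upstream start of Cdkn1a. It was not found in the window of the downstream start that these isoforms used. The 2 decamers are shown in capitals with 5 bases each side, at chr17:29090901-29090920 and chr17:29090923-29090942.
Cdkn1a decamer at -73: ggtggGGACTAGCTTtctgg
Cdkn1a decamer at -51: ttcagGAACATGTCTtgaca
The decamer was also found once in a window of Trp53, Mdm2, Ccng1, Aen and Bax, and not in those of Mdm4 and Phlda3. Member windows with it numbered 7 of 11, against 8.36% of 32841 promoter windows of all genes, and the 2 windows of Aen share the same copy. By gene, 6 of the 8 members had it, against 9.56% of 27018 genes. As the members were chosen for the p53 pathway, nothing is read from these shares. The first intron of Mdm2, 523 nt long, where the inner starts lie, held 0. A match of letters is not a measured binding site, and most known p53 sites depart from the consensus in some base.

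Ccng1 (ENSMUSG00000020326.7, chr11:40748552-40755311, - strand) encodes cyclin G1, a p53 target that recruits protein phosphatase 2A to Mdm2. Of its 13 isoforms, 10 had the 6 exons of Ccng1-201 and the same 294 codons, and they differed in the 3′ end of the terminal exon and slightly in the start. In naive cells the terminal exon was 2506, 1901 or 302 nt long. In undivided cells it was 2506, 2102, 1884, 302 or 224 nt long. After 2 divisions it was 2506 or 1899 nt long. Thus the most distal end and the one at 1884 to 1901 nt were found in each library, and the short ends in naive or undivided cells and not after 2 divisions. The 3′ UTR was 2314 nt long in the longest form and 32 nt long in the shortest.

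The distal Ccng1 ends followed an AATAAA and the short ends did not. For the end of 2506 nt, that of 2102 nt in undivided cells and that of 1884 nt in undivided cells, the bases from the signal (in capitals) to the last base were as follows.
Ccng1 end, 2506 nt: ttcAATAAAatgattgaaatgc
Ccng1 end, 2102 nt: agaAATAAAattgctgagtttatctgc
Ccng1 end, 1884 nt: catAATAAAagaaaaatttgtcag
The end of 302 nt had neither AATAAA nor ATTAAA within 50 nt, but a TATAAA beginning 17 nt before it, and the 20 bases of genome after it held 13 A.
Ccng1 after the 302 nt end: AAAAcAtAAAggAAAAgtgA
The end of 224 nt had a GATAAA beginning 29 nt before it and 7 A in the 20 bases after it.

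As a mean over isoforms, the Ccng1 terminal exon was 1570, 1404 and 2203 nt long (naive, undivided, 2 divisions). These means gave Ccng1 its place among the members. After 2 divisions the mean was 633 nt above naive cells and 799 nt above undivided cells, and undivided minus naive cells gave -166 nt. Without the isoforms whose end is A-rich, the means were 2204, 1679 and 2203 nt. The lengthening against naive cells was then gone, at -1 nt, and that against undivided cells was 524 nt. The lengthening against naive cells thus rested on the 302 nt end, while the 224 nt end, which is not A-rich, stayed in the mean of undivided cells. The longest terminal exon was 2506 nt in each library.

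**Figure D3:**
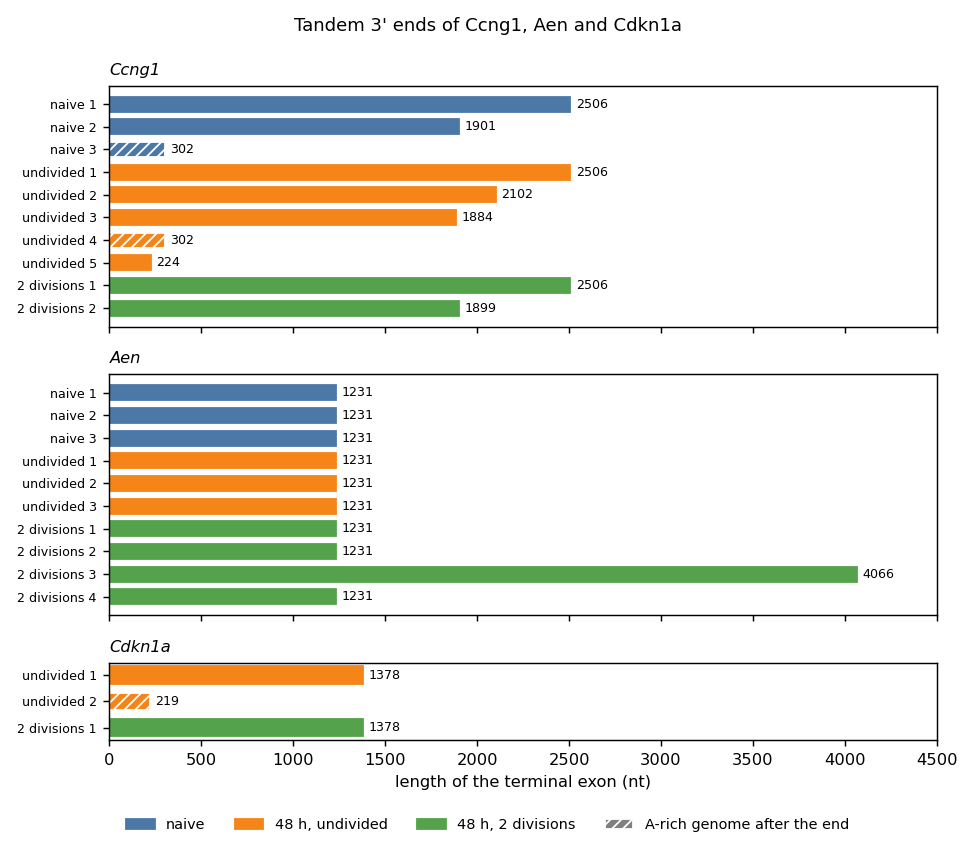
Bars give the length in nt of the terminal exon of each 6-exon isoform of Ccng1, each isoform of Aen and each 3-exon isoform of Cdkn1a, coloured by library, and hatched bars end before a stretch of genome rich in A. The Ccng1 ends of 302 and 224 nt appear in naive or undivided cells and not after 2 divisions, and 1 Aen isoform, after 2 divisions, reaches 4066 nt.

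The remaining 3 Ccng1 isoforms were in undivided cells. One was unspliced, 2502 nt long, lay inside the terminal exon and ended at the same base as the longest form. The others had 2 exons and ended in introns, 19 nt into the third intron at chr11:40752085 and 773 nt into the second intron at chr11:40753035. Both read 103 codons, of which 88 were those of cyclin G1, and then a stop. The genome after these ends held 18 and 15 A in 20 bases, and no poly(A) signal preceded them.

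Aen (ENSMUSG00000030609.18, chr7:78895854-78911209, + strand) encodes a nuclease that p53 induces and that takes part in the breakdown of DNA in dying cells. It had the same 3 chains of introns in each library, those of Aen-203, Aen-201 and Aen-204. Aen-203 and Aen-201 differed in the acceptor of the second exon, 114 nt apart, which gave 336 and 298 codons with the last 298 in common. Aen-204 left out this exon, of 601 or 487 nt, and with it both annotated coding starts. Skipping of this exon was thus as constant as the coding forms, in 1 isoform each of naive and undivided cells and in 2 after 2 divisions.

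In each library the 3 Aen chains ended at the same base, chr7:78908374, with a terminal exon of 1231 nt. After 2 divisions 1 more isoform, with the Aen-204 chain, went on for 2835 nt to chr7:78911209, the end of the annotated gene, with a terminal exon of 4066 nt. Both ends followed an AATAAA, in capitals, and neither was A-rich.
Aen end, 1231 nt: aggAATAAAgtgcatctgg
Aen end, 4066 nt: cccAATAAAttcattggtcccc
The mean terminal exon was 1231, 1231 and 1940 nt (naive, undivided, 2 divisions), a difference of 709 nt that rested on this 1 isoform. Since that isoform lacked the coding starts, the forms with 336 and 298 codons had a 3′ UTR of 958 nt in each library.

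Bax (ENSMUSG00000003873.11, chr7:45461697-45466898, - strand) encodes a protein that forms pores in the outer mitochondrial membrane when a cell commits to die. Its 5 isoforms were of 2 kinds. The form with the 6 exons of Bax-201, with 192 codons, was found in undivided cells and after 2 divisions, 1 isoform each. The form with the 5 exons of Bax-203, which keeps the 470 nt first intron (chr7:45466272-45466741), was found in each library and was the only one in naive cells. In it the frame ran for 25 codons, of which 11 were those of Bax, and stopped 866 nt upstream of the last junction. The edge of the kept intron is shown with the intron in capitals.
Bax kept intron, 5′ edge: ttgggagcggcgGTGAGGCGGGAG
All Bax isoforms ended between 45461701 and 45461706 behind the same AATAAA, with terminal exons of 261 to 266 nt. As read counts were not given, whether naive cells made little of the 6-exon form or it was missed at this depth cannot be told apart.

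Phlda3 (ENSMUSG00000041801.5, chr1:135766119-135769136, + strand), a p53 target that holds back the survival kinase Akt, had 0 isoforms in each library. No isoform of another gene or strand overlapped it.

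Across the 3 comparisons, families of isoforms that share the first base of their terminal exon were compared, and a difference of mean length over 100 nt was called. Undivided against naive cells, 5 member families could be compared, of which 0 were longer and 1 (Ccng1) was shorter, beside 5.71% longer and 13.1% shorter of 3961 families of all genes. After 2 divisions against naive cells, 2 of 5 were longer (Aen and Ccng1) and 0 shorter, beside 4.8% longer and 13.7% shorter of 3733. After 2 divisions against undivided cells, 3 of 6 were longer (Aen, Ccng1 and Cdkn1a) and 0 shorter, beside 6.92% longer and 8.4% shorter of 4653. As Aen and Ccng1 were chosen by this measure, nothing is read from the counts. The difference of Cdkn1a, 580 nt, came from the A-rich end in undivided cells and was 0 without it.

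In the families compared, terminal exons of Trp53, Mdm2 and Bax were of nearly equal length in all libraries. Their differences ran from -14.0 nt to 12.5 nt over the comparisons, the nearest to the 100 nt limit on the inner side, both of them in Mdm2. The nearest on the outer side was Ccng1 in undivided against naive cells, at -166 nt. Among all families, 17 were lengthened at least as much as Aen after 2 divisions against naive cells, Aen included, and 23 at least as much as Ccng1. Both genes were chosen by this measure, so their ranks are a description and nothing is read from them. That of Aen rests on 1 isoform, and the difference of Ccng1 was -1 nt without A-rich ends.

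**Figure D4:**
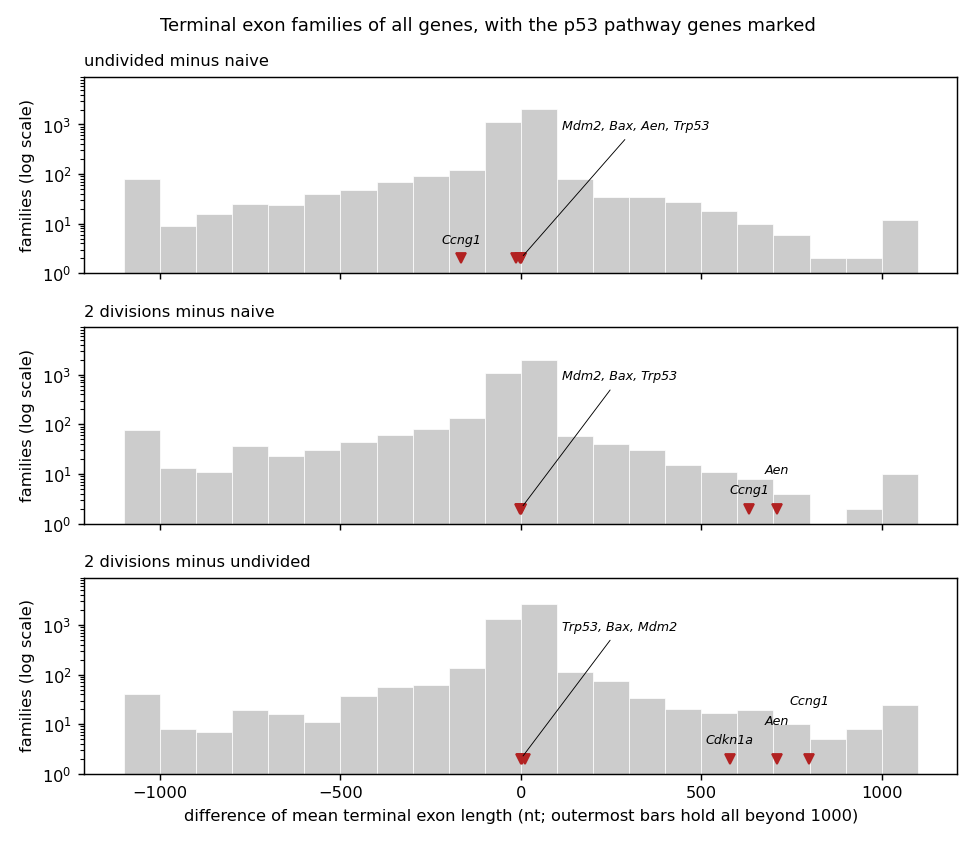
Grey bars count the terminal exon families of all genes (y axis, log scale) by the difference of their mean terminal exon length in nt (x axis) for the 3 comparisons, and triangles mark the p53 pathway genes. Trp53, Mdm2 and Bax lie within 100 nt of 0 in each comparison. Ccng1 and Aen, which were chosen by this measure, lie beyond 600 nt after 2 divisions against both other libraries.

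Over all members, merging ends within 24 nt left 17 distinct 3′ ends. The naive library held 8 of them, the undivided library 16 and the 2-division library 8, and 6 were found in each. Ends found in 1 library alone numbered 7 in undivided cells, 1 after 2 divisions (the distal end of Aen) and 0 in naive cells. Of the 7, 4 were of Ccng1, chosen by its terminal exon length, and 1 each of Mdm2, Mdm4 and Cdkn1a. Without A-rich ends, the naive, undivided and 2-division libraries held 7, 12 and 8 ends. Of 11744 ends of all genes merged in the same way, 15.7% were found in undivided cells alone, 11.7% after 2 divisions alone and 15.3% in naive cells alone, and 32.5% in each library. Of the 17 member ends, 9 lay within 24 nt of an annotated end.

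A poly(A) signal, AATAAA or ATTAAA, lay in the 50 nt before the end of 11 of 12 member isoforms in naive cells (91.7%, exact 95% binomial interval 61.5 to 99.8%). It did so for 20 of 25 in undivided cells (80.0%, 59.3 to 93.2%) and for 12 of 12 after 2 divisions (100%, 73.5 to 100%). Over all genes the share was 66.04%, 68.4% and 68.7%. A-rich ends made up 1, 4 and 0 of the same isoforms, and 26.1%, 20.4% and 20.97% of those of all genes. Among the members, every isoform without a signal or with an A-rich end was of Ccng1, apart from 1 of Cdkn1a in undivided cells. Nothing is read from how these member shares differ between libraries, because Ccng1 was chosen by its terminal exon length. The intervals cover counting error only, as isoforms of one gene are not independent.

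All 46 spliced member isoforms used annotated introns alone, against 89.8% of 30652 spliced isoforms of all genes. The whole chain of introns was annotated for 37 of the 46 (80.4%, 66.1 to 90.6%), against 62.2%. An intron of a coding transcript was kept in 6 of 46, namely 3 of Bax and 1 each of Trp53, Cdkn1a and Ccng1 (13.0%, 4.94 to 26.3%), against 14.0% of all. A coding exon was skipped in 8, all of Mdm2 and Aen (17.4%, 7.82 to 31.4%), against 12.4% of all. A form listed in several libraries, such as the kept Bax intron or the skipped exons of Mdm2 and Aen, was counted each time. The intervals do not allow for this repeat counting, so no difference from all genes, or lack of one, is read from them.

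The wider pathway was described with 5 lists of 68 further genes in the annotation. The naive library listed 28 of these, the undivided library 41 and the 2-division library 40, and 22 were in each and 19 in none. Of all protein-coding genes, the same libraries listed 21.1%, 24.9% and 23.1%, with 15.3% in each and 69.2% in none. Isoforms of the lists numbered 45, 87 and 80. Of genes that signal DNA damage to p53, 3, 8 and 7 of 12 were seen. Chek1, a kinase of the replication checkpoint, had 0, 3 and 1 isoforms. Nbn, Mre11a and Rad50 encode the complex that senses DNA breaks. Nbn had 0, 2 and 3 isoforms, Mre11a 0, 2 and 2, and Rad50 2, 3 and 3. Atm, Hipk2 and Mdc1 were seen in undivided cells alone, with 1 isoform each, and Trp53bp1 after 2 divisions alone, with 2. Of all protein-coding genes, 3.02% were seen in undivided cells alone and 2.07% after 2 divisions alone.

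Among 13 genes of p53 stability and its cofactors, 5, 6 and 6 were seen. Rpl5, a ribosomal protein that can bind Mdm2, had 1, 5 and 4 isoforms and Rpl11, of the same kind, 0, 1 and 1. Npm1, a nucleolar protein, had 2, 4 and 4, and Kat5, an acetyltransferase, 2, 3 and 4. Of 15 arrest and growth targets, 6, 7 and 8 were seen. Gtse1, which binds p53 in dividing cells, had 0, 3 and 2 isoforms. The kinase Plk2 and Sesn2, which restrains mTORC1 under stress, each had 0, 2 and 2. Ddit4, an inhibitor of mTORC1 signaling, had 3, 1 and 2, and Btg2, which holds back proliferation, had 2, 1 and 1. Ccng2 and Zmat3 were seen after 2 divisions alone, with 2 and 1 isoforms, a pattern of 2.07% of all protein-coding genes. Trp53inp1 was seen in undivided cells alone, with 1, a pattern of 3.02%.

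Of 10 targets in DNA repair and nucleotide supply, 7, 8 and 8 were seen. Ddb2 and Xpc recognise damaged bases for excision repair. Ddb2 had 5, 4 and 4 isoforms and Xpc 3, 1 and 1. Pcna, the sliding clamp of replication, had 2, 4 and 5. Polk, a polymerase that copies damaged DNA, and Rps27l had 0, 1 and 1 each. Of 18 death targets and members of the BCL2 family, 7, 12 and 11 were seen. Fas, a death receptor, had 1, 6 and 3 isoforms and Bcl2l1, which encodes the survival protein Bcl-xL, had 1, 5 and 5. Bcl2 had 3, 3 and 4. Mcl1, another survival protein, had 0, 3 and 2 isoforms. Tnfrsf10b, a receptor for the death ligand TRAIL, had 0, 2 and 1, and Pmaip1 (Noxa) and Perp had 0, 1 and 1 each. Pidd1 was seen in undivided cells alone, with 1, a pattern of 3.02% of all protein-coding genes.

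**Figure D5:**
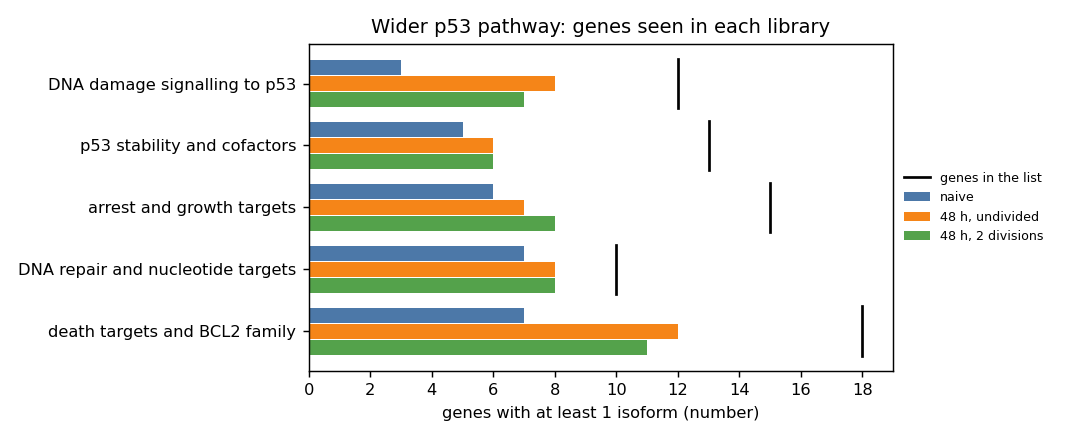
Bars give, for each of the 5 lists of wider p53 pathway genes, how many genes had at least 1 isoform (x axis) in each library, and black lines mark the size of the list. In naive, undivided and 2-division cells, the DNA damage list had 3, 8 and 7 genes and the death list 7, 12 and 11. The stability list had 5, 6 and 6, the arrest list 6, 7 and 8 and the repair list 7, 8 and 8. Of all protein-coding genes, the same libraries listed 21.1%, 24.9% and 23.1%.

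In all, 13 of the 68 genes shared the pattern of Cdkn1a, seen in both activated libraries and not in naive cells: Chek1, Nbn, Mre11a, Rpl11, Gtse1, Plk2, Sesn2, Polk, Rps27l, Pmaip1, Tnfrsf10b, Perp and Mcl1. This pattern was that of 4.61% of all protein-coding genes. Gadd45a alone had the pattern of Mdm4. Genes seen in naive cells alone were Sfn and Pltp, with 1 isoform each, and Rrm2b, a p53-induced subunit of ribonucleotide reductase, with 2, a pattern that 2.70% of all protein-coding genes had. Of the 10 B cell genes, 6 had isoforms in the naive library, 4 of them there alone and 2 in each library. Lyz2 had an isoform in the naive library alone. Whether B or myeloid cells had a part in the genes seen in naive cells alone was not tested. Bbc3, Apaf1, Bcl2l11, Casp9 and Cdkn2a were among the 19 with no isoform in any library.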

How the data were processed

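PacBio full-length cDNA was sequenced from 3 libraries. By the study's methods, the authors made consensus reads, kept reads with a poly(A) tail, clustered and collapsed them with isoseq3 after mapping with pbmm2, and used SQANTI3 for annotation. Per the submitters' processing notes, minimap2, Subread, mm10 and GRCm38 were also involved. The deposited data give exon positions, with no counts, so depth and abundance are unknown. Exon positions of 3 libraries were set against GRCm38 and GENCODE M21. The study names a later release, so a chain called unannotated here may be annotated there. The 8 genes, the 5 lists and the marker genes were chosen with earlier results of these data known. Wider pathway genes were named if they had 1 of the 3 highest isoform totals of their list or were seen in naive cells alone, in both activated libraries but not in naive cells, or in 1 activated library alone. Gadd45a was named for sharing the pattern of Mdm4. Outside this rule, Bbc3, Apaf1, Bcl2l11, Casp9 and Cdkn2a were named as examples of genes with no isoform. Reading frames start at the first start codon of an annotated coding transcript that the isoform holds and run to the first stop. An intron of a coding transcript was called kept when it lay inside 1 exon, and a coding exon skipped when it lay inside 1 intron. Ends within 24 nt were merged, and an end with at least 12 A in the next 20 bases was called A-rich. With 1 library per condition no test was run. The code was checked on simulated transcripts. Calculations used Python 3.11.15, numpy 2.4.6, scipy 1.17.1 and matplotlib 3.10.9. Protein sequences were not used here.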

Additional observations from a re-analysis of the deposited data

How the results depend on the processing

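Of 78 values under the alternatives, 62 stayed on the same side of their limit and within 1.5 times the reported value. With at least 2 isoforms required, wider pathway genes seen fell to 11, 22 and 20, and members seen to 4, 7 and 4. With the longest terminal exon in place of the mean, the difference of Aen after 2 divisions was 2835 nt against both other libraries, and that of Ccng1 was 0 in each comparison. Member families longer after 2 divisions then numbered 1 against naive cells and 1 against undivided cells, and 0 had shortened from naive to undivided cells, as with a limit of 200 nt. Without A-rich ends, 1 family was longer after 2 divisions than in naive cells. The Ccng1 difference turned to -1 nt there, was 524 nt against undivided cells and -525 nt for undivided against naive cells. Beside the 62, 15 values moved and 1 reversed, the Ccng1 difference after 2 divisions against naive cells without A-rich ends. No paired analysis was possible because each condition has 1 library, and leaving out a replicate does not apply for the same reason. Read depth is not given, so an isoform that is not listed may have been missed.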
